A study of Homo sapiens with 6 samples.

Results

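The 51 genes described here encode the machinery of G2 and mitosis, and were taken by name from 10 roles: the cyclin-CDK switch, the mitotic kinases, the spindle checkpoint, the kinetochore and centromere, the spindle motors, the spindle assembly proteins, the chromosomal passengers, cytokinesis, the ubiquitin and separation steps of anaphase, and condensin with topoisomerase. Of these 51, 50 had a probe detected at a detection p below 0.01 on at least 1 array, among 12187 genes measured in all, and all 50 were detected on all 6 arrays. NCAPH, a subunit of condensin, was detected on no array, with a lowest detection p of 0.0364, and is not counted further. The study names 3 cancer cell lines as the source of the RNA, HCT116 from colon, COLO205 from colon and OVCAR5 from ovary. Each line was kept for 2 weeks with imetelstat, an oligonucleotide that binds the RNA of telomerase and blocks the enzyme, or with the control, which the labels call vehicle. The study's methods name a mismatch oligonucleotide as control and a legend calls the control cells untreated, so that the control agent is not settled. HCT116 was grown in DMEM and the other lines in RPMI1640, so line and medium cannot be told apart where HCT116 is compared with another line. There was 1 imetelstat array and 1 vehicle array per line, although the methods state biological replicates, so no spread within a line can be given and a ratio within a line has no test.

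In G2 the cyclins that bind CDK1 accumulate, and CDK1 with the Polo-like and Aurora kinases takes the cell into mitosis. Kinetochores then tie the chromosomes to the spindle, the spindle checkpoint holds the anaphase-promoting complex back until every chromosome is attached, and the destruction of securin and cyclin B lets the chromatids part. Most of these genes are transcribed together late in the cell cycle and are repressed in G1 and in resting cells by the DREAM complex, which acts through the cell cycle genes homology region (CHR) near the start of transcription. CCAAT boxes in such promoters are bound by the activator NF-Y. In a bulk culture a change in the share of cells in G2 and mitosis and a change in RNA per cell cannot be told apart.

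The promoters of these genes are shown first because many of them hold the same short motifs. RefSeq promoters of GRCh38.p14, from 250 bases before to 50 after the start, were at hand for 43 of the 51 genes. The letters TTTGAA or TTCGAA of the CHR, on either strand, were found in 31 of the 42 of these with a detected probe, which is 73.8%, against 16.6% of all 27305 promoters and 11.3% of the 9727 promoters of genes with a detected probe. CCAAT on either strand was found in 30 of the 42, or 71.4%, against 35.7% of all promoters. Both motifs were found in 54.8% of the 42 and in 6.58% of all promoters. From 60 bases before to 50 after the start, 61.9% of the 42 and 5.46% of all promoters held the CHR letters. Of 34 promoters of DNA replication and S phase genes 5.88% held the CHR letters and 55.9% CCAAT. The windows below run from 150 bases before to 30 after the start, on the coding strand, with CHR and CCAAT letters of either strand in capitals. They are those of the 5 genes with the highest HCT116 ratio (KIF20A, NEK2, NUF2, CENPA and HMMR), of BUB1 and NUSAP1, which had low COLO205 ratios, and of SMC2, which had the lowest HCT116 ratio. In HMMR a CCAAT of each strand overlap, and 2 CHR copies follow each other without a gap.
KIF20A: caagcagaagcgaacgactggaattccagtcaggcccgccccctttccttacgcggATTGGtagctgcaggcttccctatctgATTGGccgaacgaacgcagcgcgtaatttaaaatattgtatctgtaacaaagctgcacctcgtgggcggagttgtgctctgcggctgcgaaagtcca
NEK2: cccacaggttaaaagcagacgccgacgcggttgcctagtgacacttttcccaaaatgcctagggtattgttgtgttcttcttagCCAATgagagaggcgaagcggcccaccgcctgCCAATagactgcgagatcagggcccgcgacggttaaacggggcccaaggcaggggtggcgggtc
NUF2: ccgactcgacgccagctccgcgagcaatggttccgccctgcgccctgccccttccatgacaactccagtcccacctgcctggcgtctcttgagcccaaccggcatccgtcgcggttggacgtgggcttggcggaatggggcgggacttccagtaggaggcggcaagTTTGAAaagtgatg
CENPA: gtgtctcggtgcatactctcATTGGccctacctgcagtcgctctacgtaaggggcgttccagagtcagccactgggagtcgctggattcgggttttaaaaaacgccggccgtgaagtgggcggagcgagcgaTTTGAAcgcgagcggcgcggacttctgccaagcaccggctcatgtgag
HMMR: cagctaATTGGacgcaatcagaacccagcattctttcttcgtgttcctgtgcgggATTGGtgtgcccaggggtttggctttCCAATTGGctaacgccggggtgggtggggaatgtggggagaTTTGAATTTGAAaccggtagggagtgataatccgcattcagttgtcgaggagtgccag
BUB1: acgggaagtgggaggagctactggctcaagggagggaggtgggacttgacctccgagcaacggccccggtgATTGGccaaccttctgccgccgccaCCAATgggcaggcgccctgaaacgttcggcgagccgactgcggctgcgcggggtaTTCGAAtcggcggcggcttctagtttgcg
NUSAP1: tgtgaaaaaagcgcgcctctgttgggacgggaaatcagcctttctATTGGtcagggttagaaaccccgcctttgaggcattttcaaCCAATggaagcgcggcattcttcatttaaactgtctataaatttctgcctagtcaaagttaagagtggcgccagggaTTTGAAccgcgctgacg
SMC2: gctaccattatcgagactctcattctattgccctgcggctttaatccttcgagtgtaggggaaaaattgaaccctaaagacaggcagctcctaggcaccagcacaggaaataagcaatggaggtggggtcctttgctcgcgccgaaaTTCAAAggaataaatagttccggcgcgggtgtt
The windows lie at chr5:138178962-138179141 (plus strand), chr1:211675592-211675771 (minus), chr1:163321804-163321983 (plus), chr2:26785906-26786085 (plus), chr5:163460482-163460661 (plus), chr2:110678034-110678213 (minus), chr15:41332731-41332910 (plus) and chr9:104094159-104094338 (plus). The KIF20A and NEK2 windows, of the genes with the highest ratios, held CCAAT letters and no CHR letters. The SMC2 window held CHR letters and no CCAAT, and so did that of NUF2, a gene with a high HCT116 ratio (0.82). The CENPA, HMMR, BUB1 and NUSAP1 windows held both. The low SMC2 ratio is that of its brightest probe, and its other probes gave 0.27 and 0.36 in HCT116. Members with a CHR match anywhere in the promoter had a median HCT116 log2 ratio of 0.37 (31 genes), against 0.63 in members without one (11 genes). The COLO205 medians were -0.16 with and -0.19 without a match. These matches describe letters and not binding.

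The arrays labelled COLO205 resembled those labelled HCT116, so COLO205 below stands for a label and not for a checked identity. Across detected probes Pearson's r between HCT116 and COLO205 arrays was 0.976 to 0.987 and that with OVCAR5 arrays was 0.886 to 0.893. Between the imetelstat and the vehicle array of 1 label it was 0.987 for HCT116, 0.987 for COLO205 and 0.989 for OVCAR5. The HCT116 imetelstat and COLO205 vehicle arrays, at 0.9874, were thus as alike as the 2 arrays of either label. Of 16 markers of colon epithelium 5 (EPCAM, KRT8, KRT18, KRT19 and CDX2) had a detected probe on each of the 4 HCT116 and COLO205 arrays, against 10 to 11 markers on the OVCAR5 arrays. Both OVCAR5 arrays and neither COLO205 array detected CEACAM5, CEACAM6, CDH17 and KRT20. The names OVCAR5 and HCT116 are likewise labels below, since the identity and tissue of no line were checked. The mean signal per array was 359.8 to 487.5, that of the COLO205 imetelstat array being 78.5% of that of the COLO205 vehicle array, and 15627 to 17276 probes were detected per array. The log2 signals were quantile-normalized, each gene was given by its brightest detected probe, and a ratio is the log2 signal with imetelstat minus that with vehicle in the same line. Background was not subtracted, so ratios of dim probes are understated.

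In HCT116 every measured G2 and mitosis gene was higher with imetelstat. All 50 had a positive ratio, against 50.8% of the 11010 genes detected in that line. The median ratio of the 50 was 0.41, with a range of 0.03 for SMC2 to 1.05 for KIF20A, and that of all detected genes was 0.01, also for the genes in the same range of signal. KIF20A was the 1 gene at least 2-fold higher, where the share over all genes was 0.0908%, and 13 genes were at least 1.5-fold higher, or 26%, where the share was 1.3%. These 13 were CDC25B, CDC25C, NEK2, NUF2, SPC24, CENPA, CENPF, KIF20A, KIF2C, HMMR, BIRC5, UBE2C and PTTG1, so that by the brightest probe the kinetochore, with 4, gave the most. The count rests on that choice of probe. The other probes of CDC25C, NEK2, NUF2, CENPA, HMMR, BIRC5, UBE2C and PTTG1 were higher by less than 1.5-fold. Their HCT116 ratios ran from 0.12 for UBE2C to 0.55 for NEK2. The other CDK1 probe, at 0.66, did reach 1.5-fold. None was at least 1.5-fold or 2-fold lower, where the shares over all genes were 2.11% and 0.736%.

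The COLO205 arrays went the other way, a difference between labels that 1 array per agent does not allow to be tested. There 44 of the 50 genes were lower with imetelstat, against 51.1% of 10445 detected genes, and the median ratio was -0.15, against -0.01 for all genes. None reached 2-fold lower (0.163% of all genes), and NEK2, BUB1, NUSAP1 and UBE2C were at least 1.5-fold lower (2.02% of all genes). With no scaling CCNB2, NEK2, BUB1, NUSAP1 and UBE2C were at least 2-fold lower, at -1.35 for NEK2 to -1.06 for BUB1, and the same 5 with median scaling. With normexp background correction NEK2 alone was, at -1.03. Of all genes 1.55% were at least 2-fold apart in either direction with no scaling, 1.12% with median scaling and 3.84% with normexp. KIF4A, KIF15, BIRC5, ESPL1, SMC2 and SMC4 were the 6 that were higher, by 0.04 to 0.25 and thus by less than 1.5-fold (which 1.87% of all genes reached), and all of them were lower when the arrays were scaled to a common median or not scaled. Under those scalings all 50 genes were lower, with medians of -0.59 and -0.63, where the median of all genes was -0.26 and -0.31. Relative to the median of all genes the 50 then stood at -0.32 with either scaling, against -0.15 after quantile normalization. The COLO205 medians of the 10 roles given below are those after quantile normalization, and ran from -0.75 (spindle checkpoint) to -0.44 (condensin and topoisomerase) with median scaling and from -0.79 to -0.49 with no scaling.

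In OVCAR5 the median ratio was smaller than in HCT116 and about the size of that in COLO205, with the opposite sign. Of the 50 genes 36 were higher and 14 lower with imetelstat, against 49.1% of 10538 genes higher, and the median ratio was 0.16, against -0.01 for all genes. With median scaling or no scaling 33 were higher and 17 lower. The ratios ran from -0.35 for NUF2 to 0.57 for CCNB1, and none reached 1.5-fold in either direction (1.48% of all genes were that much higher and 1.36% that much lower, and 0.256% and 0.342% by 2-fold). Of the 50 genes 33 were higher in HCT116 and OVCAR5 and lower on the COLO205 arrays, where 14.1% of the 9273 genes detected in all 3 lines had that pattern. The pattern higher in HCT116 and lower in COLO205 was shown by 44 genes, against 28.7% of all genes. KIF4A, a chromosome-bound kinesin, ESPL1 (by 0.00 in OVCAR5) and SMC2 were higher in all 3 lines after quantile normalization, a pattern of 10.8% of all genes, and lower in COLO205 with median or no scaling, ESPL1 also in OVCAR5.

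**Figure D1:**
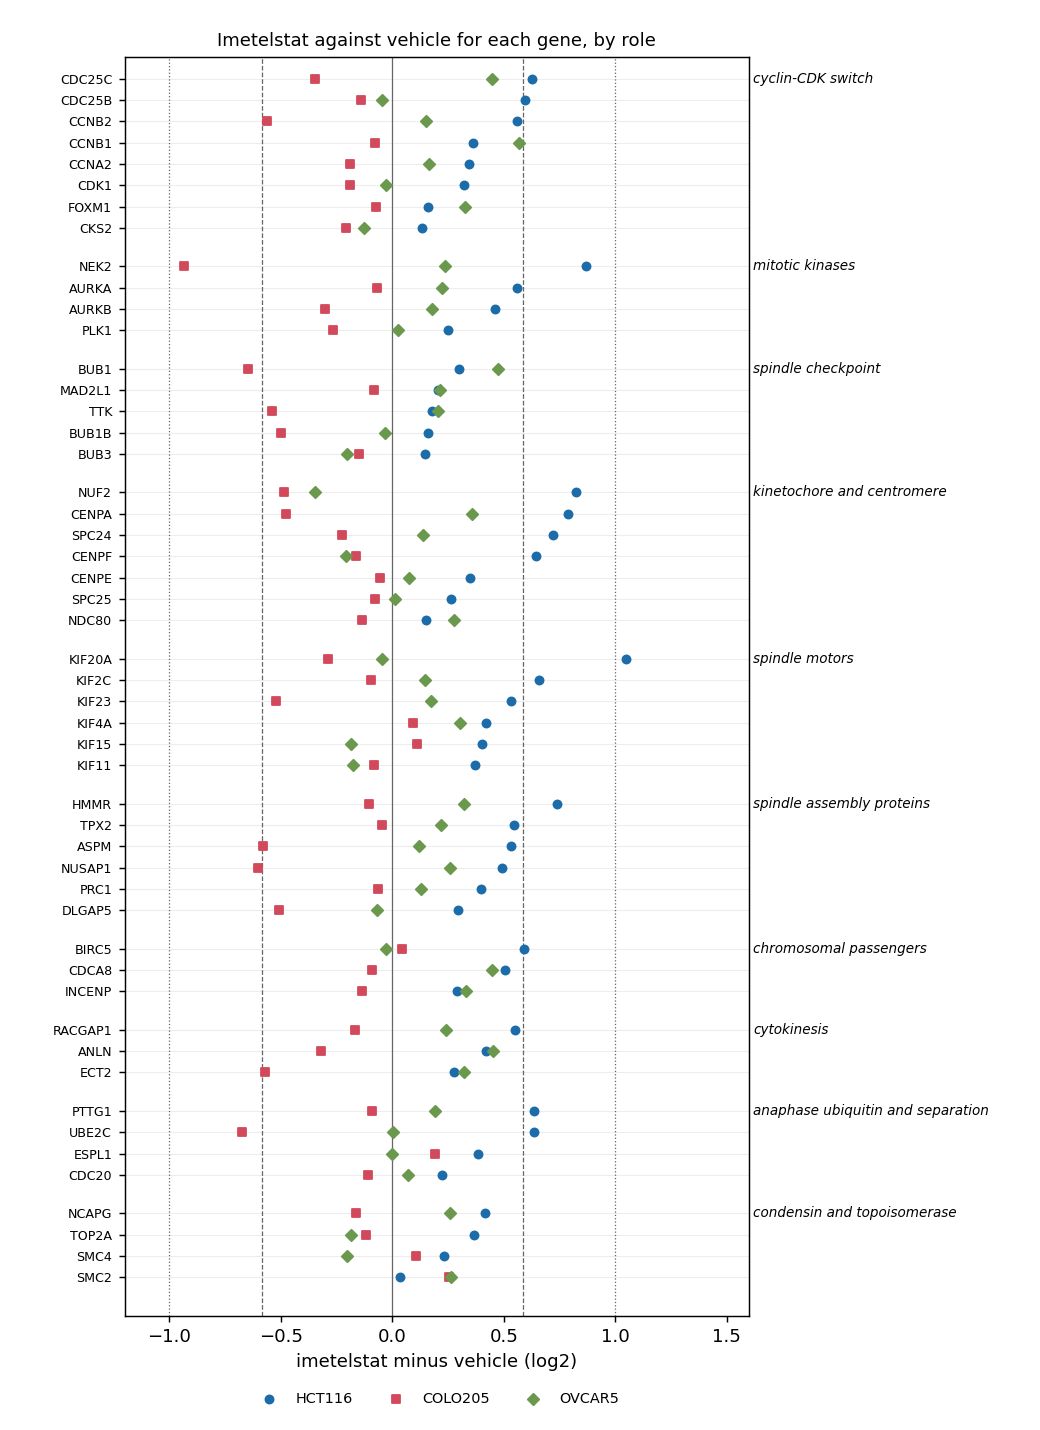
Log2 ratio of imetelstat over vehicle for each of the 50 measured genes, grouped by role, with 1 point per line (circles HCT116, squares COLO205, diamonds OVCAR5). Dashed lines mark 1.5-fold and dotted lines 2-fold. All HCT116 points lie right of 0, 44 of the COLO205 points lie left of it, and the OVCAR5 points lie on both sides within 1.5-fold.

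Across the lines no gene passed the test. With limma on all 6 arrays and the line as a block, 0 of the 50 genes and 0 of the 12187 genes tested had an adjusted p below 0.05, and at an unadjusted p below 0.05 there were 0 of the 50 and 2.7% of all genes (329). The mean ratio over the 3 lines was positive for 43 of the 50, with a median of 0.11. Without the COLO205 arrays the mean of the other lines was positive for 49, with a median of 0.29, and without the HCT116 arrays for 21, with a median of -0.04. The shares of all genes with a positive mean were not counted. KIF4A came nearest to the threshold, at 0.27 ± 0.13 (SE) and a limma unadjusted p of 0.0549, and its adjusted p was 1.00. None of the 50 genes had its 3 imetelstat arrays all above its 3 vehicle arrays, nor all below. How many of all genes had such an order was not counted.

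The genes of the cyclin-CDK switch were higher in HCT116, by a median of 0.36 over 8 genes, and all 8 were lower in COLO205, by a median of -0.19. CDC25C, a phosphatase that removes the inhibitory phosphates of CDK1, had a log2 signal of 8.65 with imetelstat and 8.02 with vehicle in HCT116, 8.73 with imetelstat and 9.08 with vehicle in COLO205, and 9.17 with imetelstat and 8.72 with vehicle in OVCAR5. Its relative CDC25B had 10.76 with imetelstat and 10.17 with vehicle in HCT116, 11.11 with imetelstat and 11.25 with vehicle in COLO205, and 10.42 with imetelstat and 10.47 with vehicle in OVCAR5. Both were 1.5-fold higher in HCT116 (ratios of 0.63 and 0.60) and the HCT116 vehicle array was the lowest of the 6 for CDC25B and for CDC25C. CCNB1, the main mitotic cyclin, had 8.15 with imetelstat and 7.78 with vehicle in HCT116, 9.19 with imetelstat and 9.26 with vehicle in COLO205, and 9.35 with imetelstat and 8.78 with vehicle in OVCAR5. Its OVCAR5 ratio of 0.57, or 1.48-fold, was the highest of the 50 genes in that line, and both HCT116 arrays lay below the other 4. CDK1, the kinase that cyclin B switches on, had 11.20 with imetelstat and 10.88 with vehicle in HCT116, 11.29 with imetelstat and 11.48 with vehicle in COLO205, and 9.82 with imetelstat and 9.84 with vehicle in OVCAR5. The brightest CDK1 probe thus differed by -0.03 in OVCAR5, while its other probe gave 0.42 there, 0.66 in HCT116 and -0.56 in COLO205. CKS2, a small CDK-binding subunit, had the smallest HCT116 ratio of this role, with 11.84 with imetelstat and 11.70 with vehicle in HCT116, 12.17 with imetelstat and 12.38 with vehicle in COLO205, and 11.36 with imetelstat and 11.49 with vehicle in OVCAR5. The mitotic cyclin CCNB2, CCNA2 and FOXM1, a transcription factor of G2 genes, had HCT116 ratios of 0.56, 0.35 and 0.16 and COLO205 ratios of -0.56, -0.19 and -0.07.

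Among the 4 mitotic kinases NEK2, a centrosome kinase, differed most between HCT116 and the COLO205 arrays of all 50 genes. It had a log2 signal of 9.59 with imetelstat and 8.73 with vehicle in HCT116, 9.51 with imetelstat and 10.44 with vehicle in COLO205, and 9.22 with imetelstat and 8.98 with vehicle in OVCAR5. The imetelstat arrays of HCT116 and COLO205 thus stood close to each other, while their vehicle arrays were the lowest and the highest of the 6. NEK2 was 1.83-fold higher in HCT116 and at 0.523 of its vehicle level in COLO205, and its other probe gave 0.55, -0.73 and -0.06 in HCT116, COLO205 and OVCAR5. AURKB, the kinase of the chromosomal passenger complex, had 10.45 with imetelstat and 9.99 with vehicle in HCT116, 10.54 with imetelstat and 10.84 with vehicle in COLO205, and 9.60 with imetelstat and 9.42 with vehicle in OVCAR5. For AURKA, the kinase of spindle poles, the values were 10.11 with imetelstat and 9.55 with vehicle in HCT116, 10.98 with imetelstat and 11.05 with vehicle in COLO205, and 11.58 with imetelstat and 11.36 with vehicle in OVCAR5. The order of the AURKA levels followed the lines, with both HCT116 arrays at the bottom and both OVCAR5 arrays at the top, and its other probe gave -0.03 in OVCAR5. PLK1, the Polo-like kinase of mitotic entry, was among the dimmest probes, with 7.44 with imetelstat and 7.19 with vehicle in HCT116, 7.63 with imetelstat and 7.89 with vehicle in COLO205, and 8.17 with imetelstat and 8.15 with vehicle in OVCAR5.

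The 5 spindle checkpoint genes had the smallest HCT116 median of the 10 roles, 0.18, and the lowest COLO205 median, -0.50. BUB1, a kinase that recruits the checkpoint to kinetochores, had a log2 signal of 10.06 with imetelstat and 9.76 with vehicle in HCT116, 9.97 with imetelstat and 10.61 with vehicle in COLO205, and 9.99 with imetelstat and 9.52 with vehicle in OVCAR5. Its 3 imetelstat arrays lay close to each other and the COLO205 vehicle array was the highest. BUB1B, which encodes the checkpoint protein BUBR1, had 7.98 with imetelstat and 7.83 with vehicle in HCT116, 7.98 with imetelstat and 8.48 with vehicle in COLO205, and 7.90 with imetelstat and 7.93 with vehicle in OVCAR5. Here 5 of the 6 arrays were close and the COLO205 vehicle array stood above them. MAD2L1, the checkpoint protein that binds CDC20, had 11.05 with imetelstat and 10.85 with vehicle in HCT116, 11.21 with imetelstat and 11.30 with vehicle in COLO205, and 9.83 with imetelstat and 9.62 with vehicle in OVCAR5. BUB3, which carries BUB1 and BUBR1 to the kinetochore, was among the brightest probes, with 12.96 with imetelstat and 12.82 with vehicle in HCT116, 13.03 with imetelstat and 13.17 with vehicle in COLO205, and 11.56 with imetelstat and 11.76 with vehicle in OVCAR5. The other BUB3 probes gave HCT116 ratios of -0.01 and 0.42, COLO205 ratios of -0.69 and -0.27 and OVCAR5 ratios of 0.04 and 0.14, so that its direction in HCT116 and OVCAR5 rests on the probe. The ratios of TTK, the kinase MPS1, were 0.18, -0.54 and 0.21 in HCT116, COLO205 and OVCAR5.

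The kinetochore and centromere genes had the highest HCT116 median of the roles, 0.64 over 7 genes, with all 7 lower in COLO205 at a median of -0.16. NUF2, a subunit of the microtubule-binding NDC80 complex, had a log2 signal of 7.97 with imetelstat and 7.15 with vehicle in HCT116, 7.71 with imetelstat and 8.20 with vehicle in COLO205, and 7.20 with imetelstat and 7.55 with vehicle in OVCAR5. It was 1.77-fold higher in HCT116 and had the lowest OVCAR5 ratio of the 50 genes, but its other probe gave 0.31 in HCT116 and 0.18 in OVCAR5. SPC24, of the same complex, had 10.32 with imetelstat and 9.60 with vehicle in HCT116, 9.81 with imetelstat and 10.03 with vehicle in COLO205, and 9.47 with imetelstat and 9.33 with vehicle in OVCAR5. SPC24 was highest on the HCT116 imetelstat array, the 1 case of this role in which that array exceeded the COLO205 vehicle array. SPC25 had 8.81 with imetelstat and 8.55 with vehicle in HCT116, 8.80 with imetelstat and 8.87 with vehicle in COLO205, and 7.94 with imetelstat and 7.93 with vehicle in OVCAR5. NDC80, which names the complex, had an HCT116 ratio of 0.15, a COLO205 ratio of -0.14 and an OVCAR5 ratio of 0.28, so that the ratios of the 4 subunits differed in size. CENPA, the histone H3 variant that marks the centromere, had 9.07 with imetelstat and 8.28 with vehicle in HCT116, 9.18 with imetelstat and 9.65 with vehicle in COLO205, and 9.52 with imetelstat and 9.17 with vehicle in OVCAR5. CENPF, a protein of the outer kinetochore, had 9.35 with imetelstat and 8.71 with vehicle in HCT116, 9.93 with imetelstat and 10.09 with vehicle in COLO205, and 8.57 with imetelstat and 8.77 with vehicle in OVCAR5. CENPA was thus higher with imetelstat in HCT116 and OVCAR5, and CENPF in HCT116 only by these values. CENPE, a kinesin of the kinetochore, had ratios of 0.35, -0.05 and 0.08 in HCT116, COLO205 and OVCAR5.

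All 6 spindle motors were higher in HCT116, by a median of 0.48, and 4 of them were lower in COLO205, where the median of the 6 was -0.09. KIF20A, a kinesin of the central spindle, had a log2 signal of 9.92 with imetelstat and 8.87 with vehicle in HCT116, 10.49 with imetelstat and 10.78 with vehicle in COLO205, and 10.61 with imetelstat and 10.66 with vehicle in OVCAR5. The HCT116 vehicle array stood more than 1 log2 below the other 5, and the ratio of 2.07-fold in that line was the largest of the 50 genes. KIF2C, which takes tubulin off microtubule ends, had 10.15 with imetelstat and 9.49 with vehicle in HCT116, 10.50 with imetelstat and 10.60 with vehicle in COLO205, and 9.28 with imetelstat and 9.14 with vehicle in OVCAR5. KIF4A had 8.999 with imetelstat and 8.58 with vehicle in HCT116, 9.49 with imetelstat and 9.40 with vehicle in COLO205, and 8.68 with imetelstat and 8.38 with vehicle in OVCAR5. Its ratios of 0.42, 0.09 and 0.30 varied less between lines than those of KIF20A. KIF11, the motor that pushes the spindle poles apart, had 9.26 with imetelstat and 8.89 with vehicle in HCT116, 9.56 with imetelstat and 9.64 with vehicle in COLO205, and 8.77 with imetelstat and 8.94 with vehicle in OVCAR5. KIF23, the motor of centralspindlin, had 9.73 with imetelstat and 9.20 with vehicle in HCT116, 9.52 with imetelstat and 10.04 with vehicle in COLO205, and 9.62 with imetelstat and 9.45 with vehicle in OVCAR5. KIF11 was lower with imetelstat in OVCAR5 by its brightest probe (-0.18) and higher by its other probe (0.16). KIF15, which can share the work of KIF11, had ratios of 0.40, 0.11 and -0.18 in HCT116, COLO205 and OVCAR5.

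The 6 spindle assembly genes were higher in HCT116, by a median of 0.51, and lower in COLO205, by a median of -0.30. HMMR, a spindle protein that also binds hyaluronan, had a log2 signal of 10.27 with imetelstat and 9.53 with vehicle in HCT116, 10.83 with imetelstat and 10.93 with vehicle in COLO205, and 11.10 with imetelstat and 10.77 with vehicle in OVCAR5. It had the highest mean ratio over the lines, 0.32 ± 0.16 (SE), and its other probe gave 0.37 in HCT116 and -0.74 in COLO205. NUSAP1, which bundles spindle microtubules, had 11.80 with imetelstat and 11.31 with vehicle in HCT116, 11.45 with imetelstat and 12.05 with vehicle in COLO205, and 10.96 with imetelstat and 10.70 with vehicle in OVCAR5. Its other probe gave 0.43 in HCT116 and -0.62 in COLO205, close to the 0.49 and -0.60 of the first. TPX2, which activates Aurora A on the spindle, had 10.26 with imetelstat and 9.72 with vehicle in HCT116, 10.84 with imetelstat and 10.88 with vehicle in COLO205, and 10.41 with imetelstat and 10.19 with vehicle in OVCAR5. DLGAP5, which stabilizes microtubules near chromosomes, had 9.82 with imetelstat and 9.53 with vehicle in HCT116, 9.92 with imetelstat and 10.42 with vehicle in COLO205, and 10.18 with imetelstat and 10.24 with vehicle in OVCAR5. ASPM, a protein of spindle poles, had 9.41 with imetelstat and 8.88 with vehicle in HCT116, 9.29 with imetelstat and 9.87 with vehicle in COLO205, and 9.53 with imetelstat and 9.41 with vehicle in OVCAR5. For NUSAP1, ASPM, DLGAP5, TPX2 and PRC1 the COLO205 vehicle array was the highest of the 6, and for HMMR the OVCAR5 imetelstat array. PRC1, which links antiparallel microtubules, had ratios of 0.40, -0.07 and 0.13 in HCT116, COLO205 and OVCAR5.

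The 3 chromosomal passengers and the 3 cytokinesis genes were all higher in HCT116, at medians of 0.50 and 0.42. BIRC5, which encodes survivin, had a log2 signal of 9.97 with imetelstat and 9.38 with vehicle in HCT116, 10.46 with imetelstat and 10.41 with vehicle in COLO205, and 9.88 with imetelstat and 9.91 with vehicle in OVCAR5. By this probe BIRC5 was 1.51-fold higher in HCT116 and differed by at most 0.04 in the other lines, whereas its other probe gave 0.19 in HCT116, 0.26 in COLO205 and 0.11 in OVCAR5. INCENP, the scaffold of the passenger complex, had 8.61 with imetelstat and 8.32 with vehicle in HCT116, 8.96 with imetelstat and 9.10 with vehicle in COLO205, and 8.75 with imetelstat and 8.42 with vehicle in OVCAR5. CDCA8, which encodes borealin, had 9.63 with imetelstat and 9.13 with vehicle in HCT116, 10.02 with imetelstat and 10.12 with vehicle in COLO205, and 9.54 with imetelstat and 9.09 with vehicle in OVCAR5. INCENP and CDCA8 thus had like ratios in HCT116 (0.29 and 0.50) and in OVCAR5 (0.33 and 0.45). ECT2, which activates RhoA at the cell equator, had 9.44 with imetelstat and 9.17 with vehicle in HCT116, 9.37 with imetelstat and 9.94 with vehicle in COLO205, and 10.22 with imetelstat and 9.90 with vehicle in OVCAR5. ANLN, the anillin of the contractile ring, had 9.97 with imetelstat and 9.55 with vehicle in HCT116, 9.85 with imetelstat and 10.17 with vehicle in COLO205, and 10.08 with imetelstat and 9.63 with vehicle in OVCAR5. RACGAP1, the partner of KIF23 in centralspindlin, had 10.74 with imetelstat and 10.19 with vehicle in HCT116, 10.76 with imetelstat and 10.93 with vehicle in COLO205, and 9.70 with imetelstat and 9.46 with vehicle in OVCAR5. All 3 cytokinesis genes had this pattern of higher, lower and higher, and the other RACGAP1 probe gave -0.04 in OVCAR5.

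Of the 4 genes of anaphase, UBE2C, the E2 enzyme of the anaphase-promoting complex, had opposite ratios of at least 1.5-fold in HCT116 and COLO205. Its log2 signal was 12.49 with imetelstat and 11.86 with vehicle in HCT116, 12.24 with imetelstat and 12.91 with vehicle in COLO205, and 11.96 with imetelstat and 11.95 with vehicle in OVCAR5. Another UBE2C probe, much dimmer and detected on 4 of the 6 arrays, gave 0.12 in HCT116 and 0.12 in COLO205. PTTG1, which encodes securin, had 12.04 with imetelstat and 11.40 with vehicle in HCT116, 12.62 with imetelstat and 12.71 with vehicle in COLO205, and 12.53 with imetelstat and 12.34 with vehicle in OVCAR5. Both HCT116 arrays lay below the other 4 for PTTG1, and its other probe gave 0.44, -0.30 and 0.13 in HCT116, COLO205 and OVCAR5. CDC20, the activator that the checkpoint holds back, had 12.20 with imetelstat and 11.98 with vehicle in HCT116, 13.12 with imetelstat and 13.23 with vehicle in COLO205, and 12.37 with imetelstat and 12.30 with vehicle in OVCAR5. ESPL1, the separase that cuts cohesin, had 8.76 with imetelstat and 8.38 with vehicle in HCT116, 9.20 with imetelstat and 9.01 with vehicle in COLO205, and 7.45 with imetelstat and 7.45 with vehicle in OVCAR5. The HCT116 ratio of CDC20, 0.22, was the smallest of the role, and ESPL1 was lowest on both OVCAR5 arrays.

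Condensin and topoisomerase had the second smallest HCT116 median, 0.30 over 4 measured genes, and a COLO205 median of -0.01, which was -0.44 with median scaling and -0.49 with no scaling. SMC2, a core subunit of condensin, had a log2 signal of 8.21 with imetelstat and 8.18 with vehicle in HCT116, 8.38 with imetelstat and 8.12 with vehicle in COLO205, and 8.51 with imetelstat and 8.24 with vehicle in OVCAR5. It was the 1 gene of the 50 for which the HCT116 vehicle array was not the lowest of the HCT116 and COLO205 arrays. Its other probes gave 0.27 and 0.36 in HCT116, and -0.21 and 0.02 in COLO205. SMC4, the partner of SMC2, had 10.36 with imetelstat and 10.12 with vehicle in HCT116, 10.54 with imetelstat and 10.43 with vehicle in COLO205, and 11.20 with imetelstat and 11.40 with vehicle in OVCAR5. NCAPG, another condensin subunit, had 11.49 with imetelstat and 11.07 with vehicle in HCT116, 11.34 with imetelstat and 11.50 with vehicle in COLO205, and 9.52 with imetelstat and 9.26 with vehicle in OVCAR5. TOP2A, the topoisomerase that untangles sister chromatids, had 11.33 with imetelstat and 10.96 with vehicle in HCT116, 11.72 with imetelstat and 11.84 with vehicle in COLO205, and 11.97 with imetelstat and 12.15 with vehicle in OVCAR5. SMC4 and TOP2A were highest in OVCAR5 and NCAPG was lowest there. An SMC4 probe detected on 2 of the 6 arrays gave -0.38 in HCT116 and -0.28 in COLO205, the opposite sign of its brightest probe in both.

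The other probes of a gene had a different sign most often in OVCAR5, where many ratios lay near 0. There were 27 other detected probes for 23 of the 50 genes, and 25 of them had the sign of the brightest probe in HCT116, 23 in COLO205 and 14 in OVCAR5. Differences of over 0.5 from the brightest probe numbered 3 in HCT116 (NUF2, UBE2C and SMC4), 3 in COLO205 (BUB3, HMMR and UBE2C) and 1 in OVCAR5 (NUF2). The median ratio of the other probes was 0.36 in HCT116, -0.27 in COLO205 and 0.12 in OVCAR5. In OVCAR5 the 13 probes of opposite sign belonged to CDK1, CKS2, AURKA, NEK2, BUB3, MAD2L1, NUF2, KIF11, DLGAP5, BIRC5, RACGAP1 and UBE2C. Those not given above were CKS2 at 0.26 (brightest probe -0.13), DLGAP5 at 0.18 (-0.07), UBE2C at -0.004 (0.005) and MAD2L1 at -0.07 (0.21, the other probe being detected on 3 arrays). In COLO205 another CDC25C probe gave 0.09, against -0.35 for the brightest.

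Among the 4 HCT116 and COLO205 arrays, the median level after quantile normalization was lowest with HCT116 vehicle and highest with COLO205 vehicle. What set the ratios of these labels apart was not tested. The median log2 level of the 50 genes was 9.94 with imetelstat and 9.50 with vehicle in HCT116, 9.95 with imetelstat and 10.42 with vehicle in COLO205, and 9.61 with imetelstat and 9.43 with vehicle in OVCAR5. The HCT116 vehicle array was the lowest of the 4 HCT116 and COLO205 arrays for 49 of the 50 genes, as for 25.5% of the 9273 genes detected in all 3 lines, and the COLO205 vehicle array was the highest for 43, as for 21.2%. With median scaling the first count was 32 and the second 47, and with no scaling they were 26 and 44. After quantile normalization the HCT116 imetelstat array lay between the vehicle arrays of HCT116 and COLO205 for 47 genes. The share of all genes with that order was not counted. The median difference over the 50 genes was -0.16 for the HCT116 imetelstat array minus the COLO205 imetelstat array and -0.83 for the HCT116 vehicle array minus the COLO205 vehicle array. So for these genes, after quantile normalization, the imetelstat arrays of these lines were closer to each other than their vehicle arrays were. Over all genes the median difference of an HCT116 array minus a COLO205 array was 0.00 to 0.01. The HCT116 and the COLO205 ratios each rest on 1 vehicle array.

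**Figure D2:**
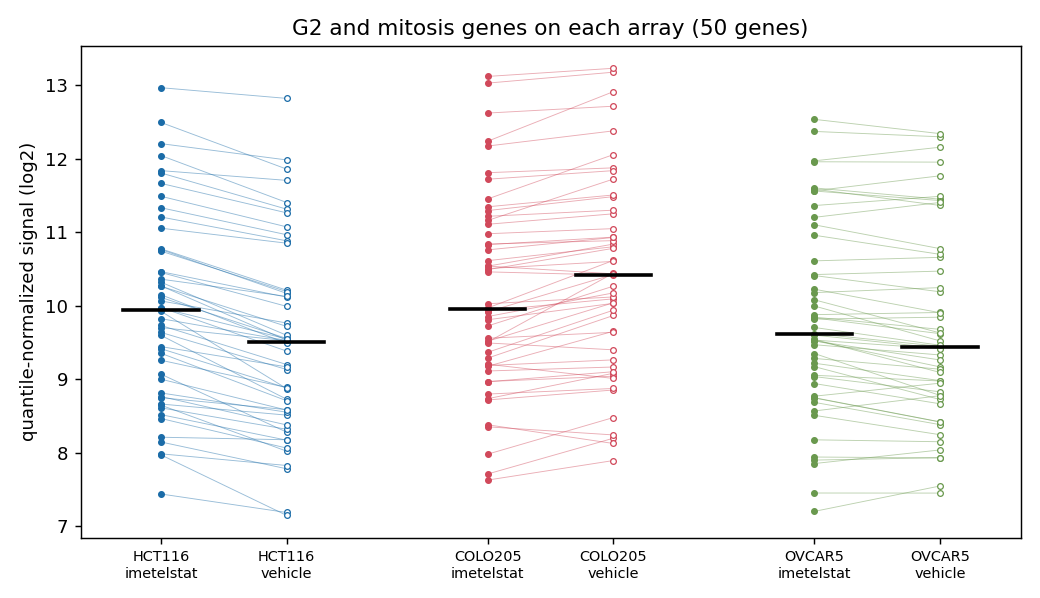
Quantile-normalized log2 signal of the 50 measured genes on each of the 6 arrays, with imetelstat (filled) left of vehicle (open) in each line, a thin line per gene and a black bar at the median. The medians are 9.94 with imetelstat and 9.50 with vehicle in HCT116, 9.95 with imetelstat and 10.42 with vehicle in COLO205, and 9.61 with imetelstat and 9.43 with vehicle in OVCAR5.

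The size of a gene's ratio in one line was at most weakly related to its size in another. Across the 50 genes Pearson's r between the HCT116 and COLO205 ratios was -0.30 (Spearman's rho -0.21), between HCT116 and OVCAR5 0.00 (rho 0.03) and between OVCAR5 and COLO205 -0.13 (rho -0.08). Genes are not independent replicates, and each ratio shares its arrays with all other genes of that line, so these are descriptions. NEK2 and UBE2C were far out in both HCT116 and COLO205, and KIF20A in HCT116 only by the 1.5-fold limit.

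**Figure D3:**
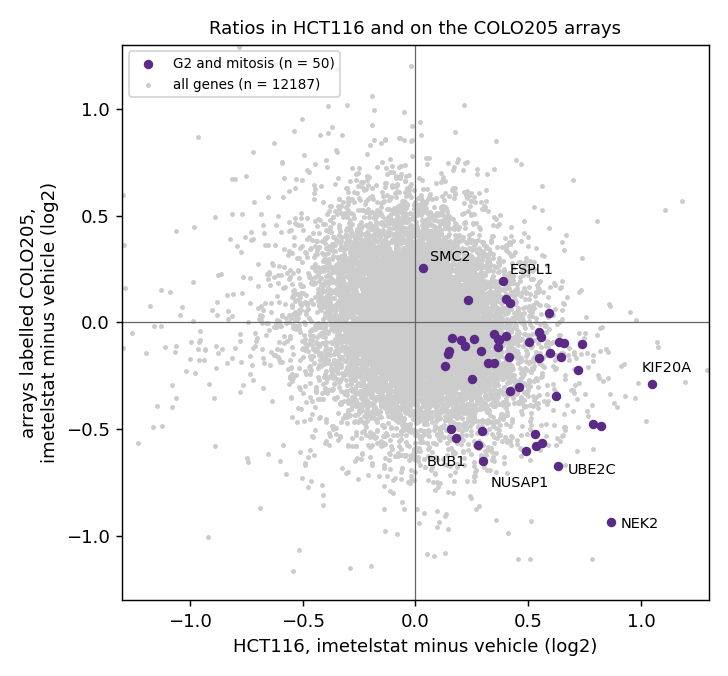
Log2 ratio of imetelstat over vehicle in HCT116 (horizontal axis) against that on the arrays labelled COLO205 (vertical axis), for the 50 G2 and mitosis genes (purple) and all genes (grey), of which 63 lie outside the axes. Of the 50 genes 44 lie in the lower right quadrant, with NEK2 and UBE2C far down and KIF20A far right.

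Between lines the 2 arrays of each line served as samples in the limma fit, with agent as a covariate. The spread in this fit is how unlike the agent difference was between lines, and not one between cultures of a line. Counted without direction, the shares of members called against OVCAR5 were near those of all genes. By direction this did not hold for COLO205. There 44% of the members were lower and 2% higher in OVCAR5, against 22.2% and 19.6% of all genes. OVCAR5 differed from HCT116 in 25 of the 50 genes at an adjusted p below 0.05, 13 higher and 12 lower in OVCAR5, against 19.3% higher and 21.7% lower of all genes (41% in all). AURKA was higher by 1.64 ± 0.17 (SE; limma adjusted p = 4.2e-05), KIF20A by 1.24 ± 0.27 and CCNB1 by 1.10 ± 0.18, while the difference was -1.89 ± 0.17 for NCAPG, -1.23 ± 0.16 for BUB3 and -1.21 ± 0.17 for CDK1. For AURKA, PLK1, SMC4 and TOP2A both OVCAR5 arrays lay above the other 4, and for 15 genes, among them CDK1, BUB3, MAD2L1 and NCAPG, they lay below. The share of all genes with these orders was not counted, so they are not read as a trait of the 50. OVCAR5 differed from COLO205 in 23 genes, with SMC4 higher by 0.82 ± 0.16 and 22 genes lower, against 19.6% higher and 22.2% lower of all genes (41.9% in all, and 49.9% at an unadjusted p below 0.05, where 30 of the 50 stood). With median scaling the members called fell to 16 (OVCAR5 minus HCT116) and 13 (OVCAR5 minus COLO205), and with no scaling to 14 and 12. Of all genes 33.8% and 32.9% were called with median scaling, and 32.1% and 31.5% with no scaling. The difference was -2.03 ± 0.17 for NCAPG, -1.65 ± 0.16 for ESPL1 and -1.56 ± 0.17 for CDK1.

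HCT116 was lower than COLO205 in 49 of the 50 genes by its mean over the 2 arrays, with a median difference of -0.46. With median scaling 43 genes were lower and the median difference was -0.28, and with no scaling 39 and -0.18. Over all genes the median difference was 0.00, and it was 0.13 with median scaling and 0.23 with no scaling. The share of all genes lower in HCT116 was not counted. In the limma fit 7 genes passed the test, all lower in HCT116, against 0.279% of all genes lower, 0.73% higher and 1.01% in all. These were CCNB1 at -1.26 ± 0.18 (SE; limma adjusted p = 0.00941), AURKA at -1.18 ± 0.17, CDC20 at -1.08 ± 0.15, HMMR at -0.98 ± 0.20, PTTG1 at -0.94 ± 0.18, TPX2 at -0.87 ± 0.17 and CENPE at -0.79 ± 0.16. Both HCT116 arrays lay below both COLO205 arrays for 35 genes, as for 21.6% of all genes. The calls did not hold under other processing: 0 of the 7 passed with background correction by normexp, with median scaling or with no scaling, and the adjusted p of HMMR, PTTG1, TPX2 and CENPE was between 0.0459 and 0.0475 to begin with. With normexp, median scaling and no scaling, 0.345%, 0.336% and 0.336% of all genes were called.

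Other genes of mitosis had smaller ratios than these 50 on the whole. Of 99 listed, 91 were measured in HCT116, of which 64 were higher and 27 lower with imetelstat, with a median ratio of 0.17. Their median was -0.06 in COLO205, where 53 of 90 were lower, and 0.06 in OVCAR5, where 55 of 89 were higher. FAM83D, which brings a kinesin to the spindle, and PBK, a mitotic kinase, had the highest HCT116 ratios of this list, 0.88 and 0.82, and MASTL, the Greatwall kinase that keeps phosphatase PP2A off in mitosis, and ZWILCH, a checkpoint protein, the lowest, -0.49 and -0.44. In COLO205 KIF14, a kinesin of cytokinesis, and CKAP2L, a spindle protein, were lowest at -0.65 and -0.60, and CDC16, a subunit of the anaphase-promoting complex, and ZWINT, a kinetochore protein, were highest at 0.58 and 0.54. In OVCAR5 CENPW, a centromere protein, and CKAP2L were highest at 0.63 and 0.58, and RBBP4, a histone-binding subunit of the MuvB core, and CCNB1IP1 lowest at -0.45 and -0.39. The limma test across lines called none of the 92 measured in any line, with 2 at an unadjusted p below 0.05. By subgroup, the 6 measured genes listed under condensin II and other condensin, not all of them condensin subunits, were all higher in HCT116, at a median of 0.49. Their median was 0.06 in COLO205, where 4 were higher, and -0.005 in OVCAR5. The 19 other spindle and cytokinesis genes had a median of 0.35 in HCT116, one of -0.18 in COLO205 and one of 0.09 in OVCAR5. In HCT116 the medians of the anaphase-promoting complex, cohesin and MuvB subgroups were 0.03, 0.06 and 0.09.

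DNA replication and S phase genes had medians nearer to those of all genes. Of 41 listed 38 were measured, with a median of 0.06 in HCT116, of 0.08 in COLO205 and of -0.02 in OVCAR5, and 23 were higher in HCT116 and 23 in COLO205. LIG1, the ligase that joins Okazaki fragments, and POLA1, the catalytic subunit of DNA polymerase alpha, were highest in HCT116 at 0.45 and 0.44, and MCM10 and MCM6, which act in origin firing and in the replicative helicase, lowest at -0.26 and -0.23. In COLO205 MCM5, another helicase subunit, and RPA2, which coats single strands, were highest at 0.58 and 0.48, and LIG1 and TK1, thymidine kinase, lowest at -0.55 and -0.32. In OVCAR5 POLA2 and RPA2 were highest at 0.48 and 0.38, and LIG1 and RFC3, a clamp loader subunit, lowest at -0.38 and -0.35. With median scaling the COLO205 median of this list was -0.28, near the -0.26 of all genes. MKI67, the proliferation marker Ki-67, had a log2 signal of 8.03 with imetelstat and 7.86 with vehicle in HCT116, 8.23 with imetelstat and 8.22 with vehicle in COLO205, and 7.27 with imetelstat and 7.39 with vehicle in OVCAR5. Its HCT116 ratio of 0.16 lay in the lower part of the range of the 50 genes.

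Genes of G1 arrest were also higher in HCT116 on the whole list, with 11 of 14 measured genes higher and a median of 0.33, against medians of -0.04 in COLO205 and 0.09 in OVCAR5. TP53INP1 and SESN1, targets of p53, had HCT116 ratios of 1.29 and 0.86, and CDKN2B and BTG1 had the lowest, -0.43 and -0.39. In COLO205 CDKN2D and SESN2 were highest at 0.41 and 0.31 and CCNG2 and CDKN1B lowest at -0.70 and -0.39. In OVCAR5 SESN2 and GADD45A were highest at 0.48 and 0.43 and CDKN1B and SESN1 lowest at -0.08 and -0.07. None of the S phase, MKI67 or arrest genes was called by limma across lines.

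**Figure D4:**
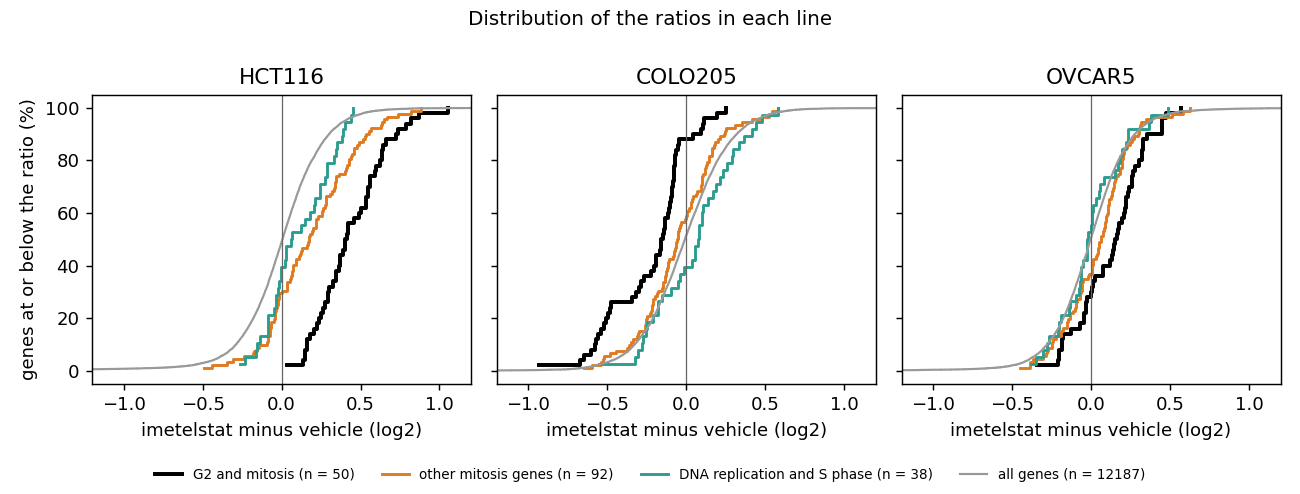
Cumulative share of genes (percent, vertical axis) at or below each log2 ratio of imetelstat over vehicle (horizontal axis) in HCT116, COLO205 and OVCAR5, for the 50 G2 and mitosis genes (black), other mitosis genes (orange), S phase genes (teal) and all genes (grey). The black curve lies right of the grey one in HCT116 (median 0.41 against 0.01), left of it in COLO205 (-0.15 against -0.01) and right of it in OVCAR5 (0.16 against -0.01).

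The non-members whose levels over the 6 arrays were most like the mean of the 50 genes were HDAC6, GAS2L3, CDCA3, ARF1 and HACL2, at Pearson's r of 0.97 to 0.98 among 8036 candidates, 39 of which were over 0.9. CDCA3, a factor of mitotic entry from the list of other mitosis genes, had an HCT116 ratio of 0.63, a COLO205 ratio of -0.54 and an OVCAR5 ratio of 0.27. Those of HDAC6, a cytoplasmic deacetylase, were 0.33, -0.17 and -0.01, and those of GAS2L3, a protein that links actin and microtubules, 0.33, -0.21 and 0.08. With 6 arrays of 3 lines these likenesses are a description.

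Markers of cell types were set beside these ratios. Of 10 stromal and blood markers 4 were detected on any array, CD68, a macrophage marker, on all 6 and CD14 and PECAM1 on the OVCAR5 arrays alone. Their summed linear signal was 1515 with imetelstat and 2764 with vehicle in HCT116, 1135 with imetelstat and 1150 with vehicle in COLO205, and 2364 with imetelstat and 1642 with vehicle in OVCAR5. That of the 12 detected colon markers was 28983 with imetelstat and 30366 with vehicle in HCT116, 33152 with imetelstat and 28608 with vehicle in COLO205, and 68027 with imetelstat and 59401 with vehicle in OVCAR5. The CD68 ratios were -1.05, 0.04 and 0.54 in HCT116, COLO205 and OVCAR5, and in OVCAR5 all 4 markers were higher with a median of 0.52. Of 8 ovarian and Muellerian markers 5 were detected on any array and 3 to 4 on each array. In OVCAR5 MSLN had a ratio of -0.63, MUC16 of -0.52, PAX8 of -0.22 and KRT7 of 0.51, and in HCT116 MSLN had 0.55. Their summed signal was 2540 with imetelstat and 1910 with vehicle in HCT116, 1609 with imetelstat and 1494.9 with vehicle in COLO205, and 4546 with imetelstat and 5245 with vehicle in OVCAR5. PTPRC and CD3E, which mark blood cells, had no detected probe. The part of these markers in the results above was not tested.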

How the data were processed

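Total RNA of 6 cultures, 1 with imetelstat and 1 with vehicle of each line, was measured on Illumina HumanHT-12 V4 BeadChips. The signal intensity deposited by the authors is a mean bead intensity per probe with neither background subtraction nor normalization, and the deposited detection p-value sets each probe against control beads. The authors' table of processed intensity values is quantile-normalized on a linear scale and was used as an alternative. The methods name lumi with a version not given in the sources used here. Groups came from the labels.

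The log2 signals of all 47231 probes were quantile-normalized in R 4.3.3 (limma 3.58.1). Of the probes 30113 had 1 gene symbol, 8 several and 17110 none, and 30074 symbols were updated through the gene identifier. The brightest probe with a detection p below 0.01 on at least 1 array stood for a gene. Within a line a gene was called where it differed by 2-fold, or by 1.5-fold as a lower limit. Across lines, and between lines, limma's lmFit and eBayes were fitted to all genes with line and agent as terms (2 residual degrees of freedom), with Benjamini-Hochberg adjustment at 0.05, and each line forms 1 pair. Precision is limited by the number of arrays. Nothing says that the 2 arrays of a line are replicates. With agent in the fit, p-values between lines rest on how unlike the agent difference was between lines, moderated over genes. They do not measure a spread between cultures of 1 line.

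The members, lists and tests were chosen with earlier results of these data known. Genes given on each array are those at least 1.5-fold apart in any line, the 2 of each role with the highest and the lowest mean ratio, and the 3 brightest and 3 dimmest probes. Other probes are given where they differ in sign or by over 0.5, MKI67 always, the 2 most extreme genes of other lists in each line, and the 5 genes most alike. CCNB2, TTK, NDC80, CENPE, KIF15, PRC1, CCNA2, FOXM1, CDCA3, CD68, CD14, PECAM1, PTPRC, CD3E, MSLN, MUC16, PAX8 and KRT7 were named in addition. Alternatives were normexp with an offset of 16, median scaling, no scaling, the authors' values, an offset of 32, other filters on detection, means over probes, a variance trend, no replicate block and leaving out each line, and a fit with no agent term was added after seeing the data. Motifs were sought in RefSeq promoters of GRCh38.p14. Motif counts and plots used matplotlib 3.10.9, pandas 2.3.3 and numpy 2.4.6 under Python 3.11.15.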

Additional observations from a re-analysis of the deposited data

Results flagged for a closer look

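HCT116 and the COLO205 arrays had median ratios of opposite sign over the 50 genes, 0.41 and -0.15, a difference of 0.56 on the log2 scale. OVCAR5 and the COLO205 arrays also had medians of opposite sign, 0.16 and -0.15, a difference of 0.31. NEK2 was at least 1.5-fold higher in HCT116 and at least 1.5-fold lower in COLO205, a difference of 1.80 between the log2 ratios, and its other probe had the same 2 signs. UBE2C likewise differed by 1.31 between HCT116 and COLO205, but its other, dimmer probe gave 0.12 in both. None of these differences was tested, since each line had 1 array per agent.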

How the results depend on the processing

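In HCT116 the median ratio of the 50 genes was 0.39 to 0.51 and all 50 were higher with imetelstat under every alternative of normalization, filter and probe choice run on the whole list. In OVCAR5 the median was 0.13 to 0.18. The COLO205 median was -0.21 to -0.15, except -0.59 with median scaling and -0.63 with no scaling, where all genes stood at -0.26 and -0.31. The count of genes at least 2-fold apart was 4 in HCT116 and 1 in COLO205 with normexp (2.86% and 3.84% of all genes), and 5 in COLO205 with median scaling and also with no scaling (1.12% and 1.55% of all genes). With a limit of 1.5-fold it was 13 in HCT116 and 4 in COLO205.

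The test across lines called 0 of the 50 genes under every alternative, also without each line and with no replicate block. The pairing by line thus changed no call among the 50. Of all genes 0.0246% were called without the COLO205 pair, 0.107% without the OVCAR5 pair and 0% without the HCT116 pair. The genes called between OVCAR5 and HCT116 numbered 17 with normexp, 16 with median scaling and 14 with no scaling (39.1%, 33.8% and 32.1% of all genes), and those between OVCAR5 and COLO205 19, 13 and 12 (39.6%, 32.9% and 31.5%). The 7 genes called between HCT116 and COLO205 became 0 with normexp, 0 with median scaling, 0 with no scaling, 3 with the authors' values, 3 with detection on all 6 arrays, 1 with no detection filter, 2 with the mean of probes, 3 with an offset of 32 and 4 with no agent term, the last chosen after seeing the data. Of all genes 1.01% were called between HCT116 and COLO205 in the fit given above. Under these settings, in the same order, the share was 0.345%, 0.336%, 0.336%, 0.845%, 0.626%, 0.239%, 0.46%, 0.558% and 0.87%. The cause of the change in calls was not tested. Line contrasts on the vehicle arrays alone have no residual degrees of freedom and were not run. Ratios of dim probes are limited by signal over background, the lowest signal being 74.7.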
